A study of Mus musculus with 8 samples.

Results

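Ahnak2, Ighm, Zfp839 and Zfp386 are 4 genes of distal mouse chromosome 12, of 18193 genes that the arrays measured. They were selected on their log2 RMA values, as neighbours that all read lower in transgenic ganglia, so their own differences are given as a description and without a test. Every probe set annotated to 1 of these symbols alone was taken, which gave 15 probe sets: 1 for Ahnak2, 1 for Zfp839, 2 for Zfp386 and 11 for Ighm. RNA came from the trigeminal ganglion, the cluster of sensory neuron cell bodies that serves the face. Of the 8 Affymetrix Mouse Genome 430 2.0 arrays, 4 held RNA of mice transgenic for daDREAM, a form of the calcium-regulated transcriptional repressor DREAM built to stay active, and 4 held RNA of control mice. The labels call both groups adult males of the strain C57B/6XCBA, a mixed background. All transgenic titles carry the tag tg16, so the transgene and anything else that animals under this tag share cannot be told apart. The labels do not name the transgene's promoter, the animals' exact age or whether an array held 1 animal or a pool. Differences therefore stand against the spread between arrays.

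AHNAK2 is a very large scaffold protein, a relative of AHNAK, which binds annexin A2 and S100A10 under the plasma membrane. Ighm encodes the constant part of the IgM heavy chain, which B cells place on their surface with the signalling chains CD79A and CD79B, and which plasma cells secrete joined by the J chain. Zfp386 belongs to the Krüppel-type zinc finger genes, many of which encode DNA-binding repressors. Zfp839 is likewise named as a zinc finger gene. DREAM itself binds DNA at downstream regulatory elements, whose core letters are GTCA.

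Start regions of the 3 members found in RefSeq's promoter table (GRCm38.p6) are shown because the genes share their direction and because DREAM binds DNA near gene starts. Each runs 5′ to 3′ from 250 bases before to 50 bases after the annotated start, and capitals mark GTCA on either strand, which reads TGAC where the core lies on the other strand. The regions are chr12:112795693-112795992 on the minus strand for Ahnak2, chr12:110850029-110850328 on the plus strand for Zfp839 and chr12:116047474-116047773 on the plus strand for Zfp386.
Ahnak2: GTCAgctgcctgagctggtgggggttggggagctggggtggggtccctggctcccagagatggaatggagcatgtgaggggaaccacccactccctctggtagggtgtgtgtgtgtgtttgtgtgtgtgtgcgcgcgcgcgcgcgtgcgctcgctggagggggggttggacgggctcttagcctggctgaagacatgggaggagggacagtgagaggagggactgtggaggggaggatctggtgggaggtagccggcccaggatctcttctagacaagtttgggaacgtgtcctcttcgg
Zfp839: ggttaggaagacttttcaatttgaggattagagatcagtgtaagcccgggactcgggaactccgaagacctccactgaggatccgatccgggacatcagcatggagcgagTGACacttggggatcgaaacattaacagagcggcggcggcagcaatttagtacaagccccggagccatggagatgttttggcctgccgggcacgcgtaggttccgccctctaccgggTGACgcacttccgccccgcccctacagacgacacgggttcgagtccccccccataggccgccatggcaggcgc
Zfp386: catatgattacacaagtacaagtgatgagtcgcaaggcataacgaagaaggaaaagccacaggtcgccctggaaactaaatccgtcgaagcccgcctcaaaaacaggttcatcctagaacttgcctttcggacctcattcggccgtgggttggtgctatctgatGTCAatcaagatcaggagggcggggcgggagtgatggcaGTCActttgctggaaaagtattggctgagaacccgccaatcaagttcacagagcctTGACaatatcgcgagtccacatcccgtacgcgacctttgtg
The Ahnak2 region held 1 core, on its own strand at position -250 from the start. In Zfp839 there were 2, both on the opposite strand, with the leftmost base at -140 and -23. Zfp386 had 3, at -86 and -47 on its own strand and at 10 on the opposite strand. Of all 32851 promoters listed, 85.2% held at least 1 core and the median was 2, so the members lay at 1 below, at and 1 above it. A longer form, GTCANNG on either strand, where N is any base, was present in 42.3% of promoters. Among the 3 members it was found in Zfp386 alone, where it overlaps the core at 10. GC content was 63.7% for Ahnak2, 60% for Zfp839 and 51% for Zfp386, with a median of 52.7% over the table.

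The arrays had features that bear on what follows. Kcnip3, the gene that encodes DREAM, read 10.16 to 10.31 in daDREAM ganglia and 10.10 to 10.42 in control ganglia at its brighter probe set. At its other probe set it read 8.91 to 9.30 in daDREAM and 8.46 to 9.14 in control ganglia, an overlapping difference of 0.27. The labels do not say whether either probe set covers the transgene. The labels call all animals male, yet the female transcript Xist was high on daDREAM replicate 4 (11.51) and on control replicates 3 and 4 (10.20 and 11.72), against 6.10 to 6.43 and 6.41 to 6.49 on the other daDREAM and control arrays. The Y-linked gene Eif2s3y read 4.46 on daDREAM replicate 4, and 8.40 and 7.16 on control replicates 3 and 4, against 8.74 to 9.04 on the others. Sensory neuron markers fitted the labelled tissue, with a mean log2 value over 12 genes of 11.54 to 11.74 on daDREAM arrays and 11.56 to 11.75 on control arrays. Markers of other tissues differed between the groups. All 8 measured central nervous system markers had a higher mean in daDREAM ganglia, 7 of them at an unadjusted p under 0.05 (limma), where 18.2% of all genes had such a p. Their median difference was 0.73 and their summed linear signal 10280 to 13850 on daDREAM arrays and 5256 to 9983 on control arrays, without overlap. The astrocyte gene Gfap read 10.77 to 11.24 on daDREAM arrays and 8.29 to 10.22 on control arrays at its brightest probe set. At 1426509_s_at the groups overlapped, with 9.79 to 10.38 on daDREAM arrays and 8.36 to 10.18 on control arrays. At 1440142_s_at they did not, with 8.82 to 9.15 on daDREAM arrays and 5.68 to 5.98 on control arrays. Of 10 skeletal muscle markers 9 had a lower mean, with a median of -0.56, and 7 had an unadjusted p under 0.05. Those 7 include Pvalb, the marker with a higher mean, which was higher by 0.34 without overlap. Acta1, the skeletal muscle actin, read 6.60 to 6.89 on daDREAM arrays, and 9.20 and 9.40 on control replicates 1 and 3 against 7.07 and 6.73 on the other control arrays. Growth hormone, Gh, a pituitary product, ranged from 9.04 to 13.43 on daDREAM arrays and from 9.08 to 11.15 on control arrays. The part of these tissues in the members' differences was not tested.

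Ahnak2 had the widest separation. Its single probe set, 1436520_at, read 9.32, 9.20, 8.91 and 9.22 on the daDREAM arrays and 12.55, 12.48, 12.44 and 12.53 on the control arrays, as RMA values on the log2 scale. All transgenic arrays thus lay far under all control arrays, with 3.12 between the nearest pair. The means were 9.16 ± 0.18 and 12.50 ± 0.05 (SD, n = 4 each), a difference of -3.34 (SE 0.09) or 10.1-fold lower. Only 1 of 18193 genes had a lower difference, and none of the 622 measured genes of chromosome 12 did. With a mean above 94.6% of all probe sets, the signal was bright, and it stayed well above the dim range on the transgenic arrays. Values ranged over 0.41 among transgenic arrays, lowest on replicate 3, and over 0.11 among control arrays. A single probe set leaves no second reading of the transcript. In RNA from whole ganglia, fewer cells that express a gene and less RNA per cell cannot be told apart.

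Zfp839, the first of the 4 along the chromosome, had the smallest difference. Its probe set 1456886_at read 7.77, 7.89, 7.84 and 7.83 on daDREAM arrays, against 8.40, 8.38, 8.34 and 8.25 on control arrays. The groups did not overlap, and the spread within each was narrow. Means were 7.83 ± 0.05 and 8.34 ± 0.07 (SD, n = 4 each), so that Zfp839 was 1.42-fold lower (difference -0.51, SE 0.04).

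Zfp386, the last of the 4, was lower at both of its probe sets. At 1421139_a_at, the brighter, values were 7.85, 7.76, 7.78 and 7.81 on daDREAM arrays and 8.79, 8.55, 8.44 and 8.55 on control arrays. At 1451146_at they were 7.54, 7.42, 7.43 and 7.55 on daDREAM arrays and 8.66, 8.53, 8.44 and 8.54 on control arrays. Neither probe set showed overlap, and control replicate 1 was the highest array at both. The differences were -0.78 (SE 0.08) and -1.06 (SE 0.06), which is 1.72-fold and 2.08-fold lower.

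**Figure D1:**
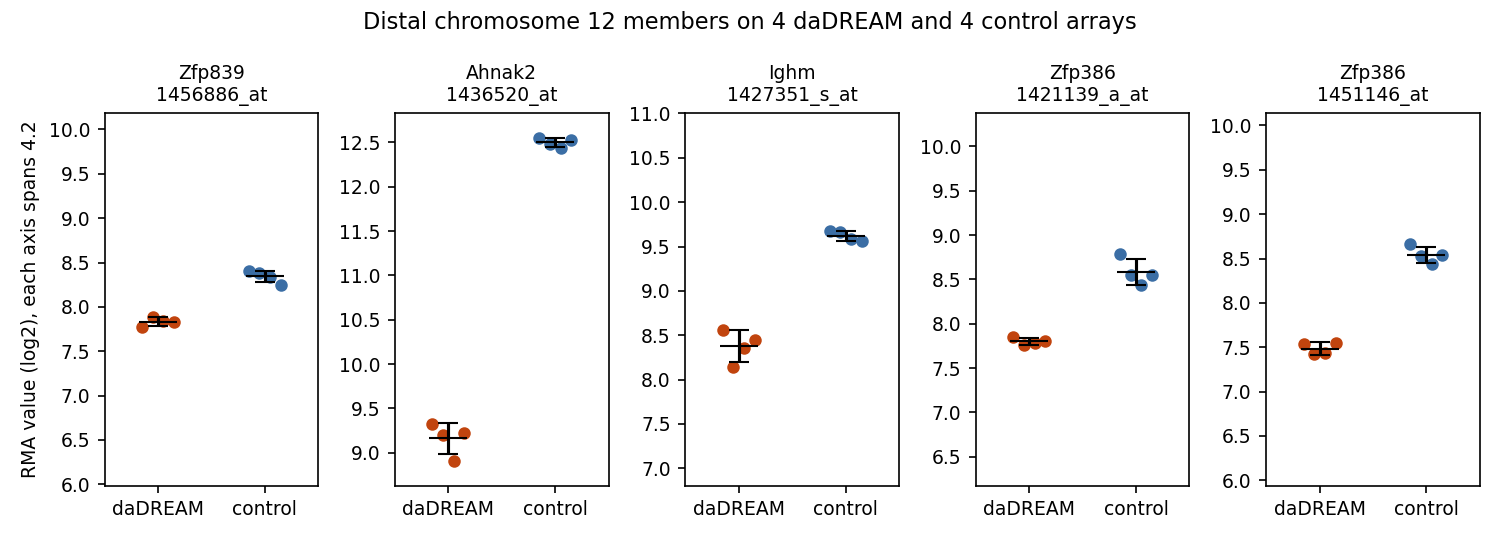
RMA values (log2, every axis spanning 4.2) of the probe sets of Zfp839, Ahnak2 and Zfp386 and of the brightest Ighm probe set. Points are arrays, daDREAM left and control right, with bars for mean ± SD (n = 4 each). In all 5 panels the daDREAM arrays lie under the control arrays, with the widest gap, 3.12, for Ahnak2.

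Ighm was lower at some of its probe sets and not at others. The brightest, 1427351_s_at, read 8.56, 8.14, 8.36 and 8.45 on daDREAM arrays, against 9.67, 9.66, 9.59 and 9.56 on control arrays. Control arrays lay within 0.11 of each other, and transgenic arrays within 0.42. The difference was -1.24 (SE 0.09). At 1427329_a_at the values were 7.60, 7.23, 7.78 and 7.98 on daDREAM arrays and 8.82, 8.56, 8.88 and 8.20 on control arrays, a difference of -0.97 (SE 0.22) with only 0.22 between the groups. At 1425385_a_at they were 5.62, 5.98, 5.94 and 5.97 on daDREAM arrays and 7.17, 7.25, 6.72 and 6.96 on control arrays, a difference of -1.15 (SE 0.15). The transgenic values of this probe set sit among the dimmer probe sets, so its difference may be understated. The fourth, 1427870_x_at, was separated by 0.05 alone, at 7.05 to 7.34 on daDREAM arrays and 7.39 to 7.67 on control arrays (difference -0.28, SE 0.09).

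The other 7 Ighm probe sets had overlapping groups, with differences from -0.13 to 0.09. All their array values lay between 5.39 and 6.49, and their means were above those of 21.5% to 32.9% of all probe sets. The names of all 4 separated probe sets, and of 3 of these 7, end in s_at, a_at or x_at, which marks probes that may match more than 1 transcript, and the annotation does not say which part of the heavy chain each one reads. Taken as the mean of all 11 probe sets, the Ighm difference was -0.34. Across the 15 probe sets of the 4 genes, the daDREAM arrays lay wholly under the control arrays in 8, and in 0 wholly above. Over all 45037 probe sets 5.91% had daDREAM values all under control values, but the members were chosen for that direction, so nothing is read from the contrast.

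**Figure D2:**
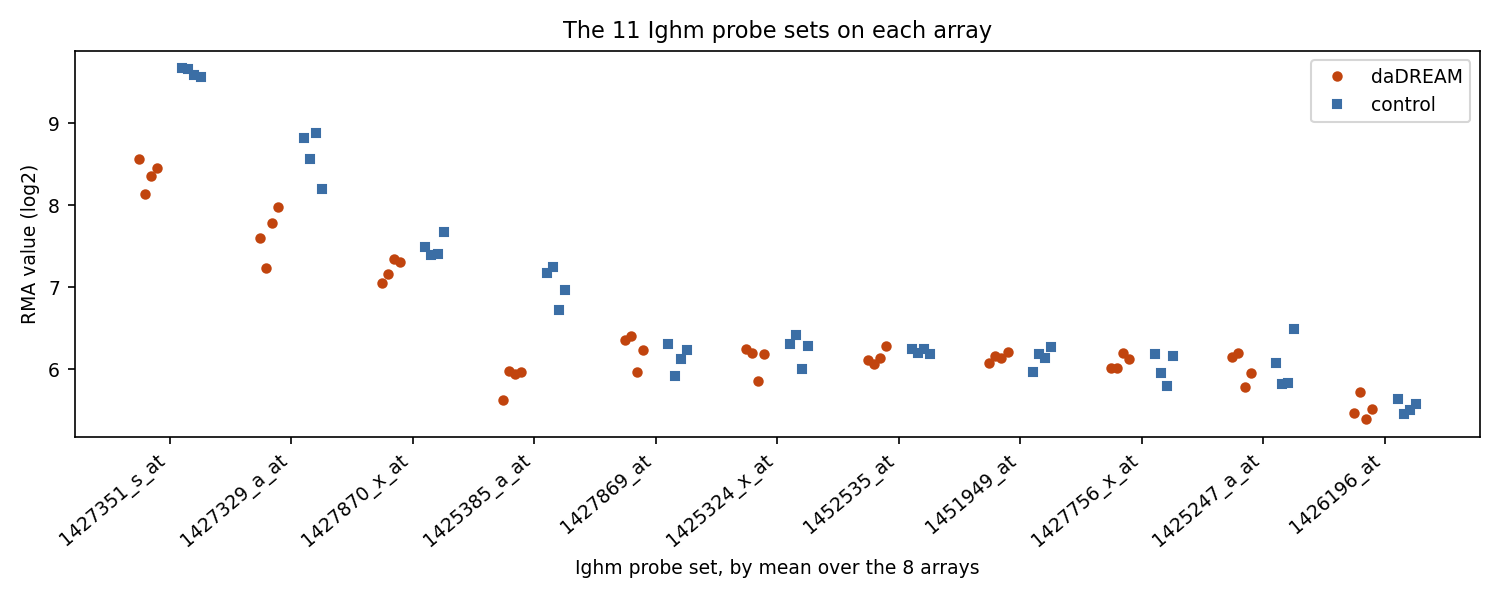
RMA values (log2) of the 11 Ighm probe sets, ordered by their mean over the 8 arrays, with daDREAM arrays as circles on the left and control arrays as squares on the right of each position. The groups separate at 4 probe sets, all among the brightest, and overlap at the 7 dimmest.

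The other genes of the immunoglobulin apparatus did not pass the test. Genes were tested with limma, and a gene passed at an adjusted p under 0.05 over all 18193 genes, which 364 did (2%). Of 17 listed B cell receptor and immunoglobulin genes 9 were measured, and 0 passed, with 2 at an unadjusted p under 0.05 (18.2% of all genes). These were Igha and Pigr. Pigr was dim and lower without overlap (difference -0.27, limma adjusted p = 0.197), while its other probe set differed by 0.05 with overlapping groups. Cd79a, which signals beside surface IgM, read 6.99 to 7.26 on daDREAM arrays and 6.99 to 7.28 on control arrays, and its partner Cd79b read 6.15 to 6.83 and 6.16 to 6.71. These groups overlapped almost completely. At their brightest probe sets the neighbouring heavy chain constant genes Igha (IgA) and Ighg3 (IgG3) differed by 0.24 (limma adjusted p = 0.249) and -0.17 (limma adjusted p = 0.351). The groups overlapped for both. A dimmer Igha probe set was higher without overlap, at 6.87 to 7.48 on daDREAM arrays and 6.41 to 6.80 on control arrays. Its difference of 0.53 did not pass (limma adjusted p = 0.0691 over probe sets). The median difference of the 9 genes was -0.02, against 0 over all genes.

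Light chain and J chain signals had overlapping groups. The probe sets in question are 3 whose annotation lists several kappa light chain segments, and they were picked after their values were seen. The brightest, 1427660_x_at, read 8.43, 8.16, 7.75 and 7.39 on daDREAM arrays and 10.09, 8.25, 7.37 and 6.66 on control arrays. Control arrays thus ranged over 3.43, and the transgenic arrays fell inside that range. The other kappa probe sets ranged over 4.18 and 1.96 among control arrays, and both were highest on control replicate 1. Jchain, which links secreted IgM and IgA, read 6.28, 5.86, 5.41 and 5.38 on daDREAM arrays and 6.35, 5.69, 5.33 and 5.40 on control arrays. These values are as dim as those of the 7 overlapping Ighm probe sets. Jchain too was highest on replicate 1 of each group, whereas the brightest Ighm probe set kept its control values within 0.11 on the same arrays. Control values ranged more widely at the Ighm probe sets 1427329_a_at (0.68) and 1425385_a_at (0.53). The first of these was lowest on control replicate 4, as was 1427660_x_at. Ighm was chosen for its values, so nothing is read from this contrast.

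**Figure D3:**
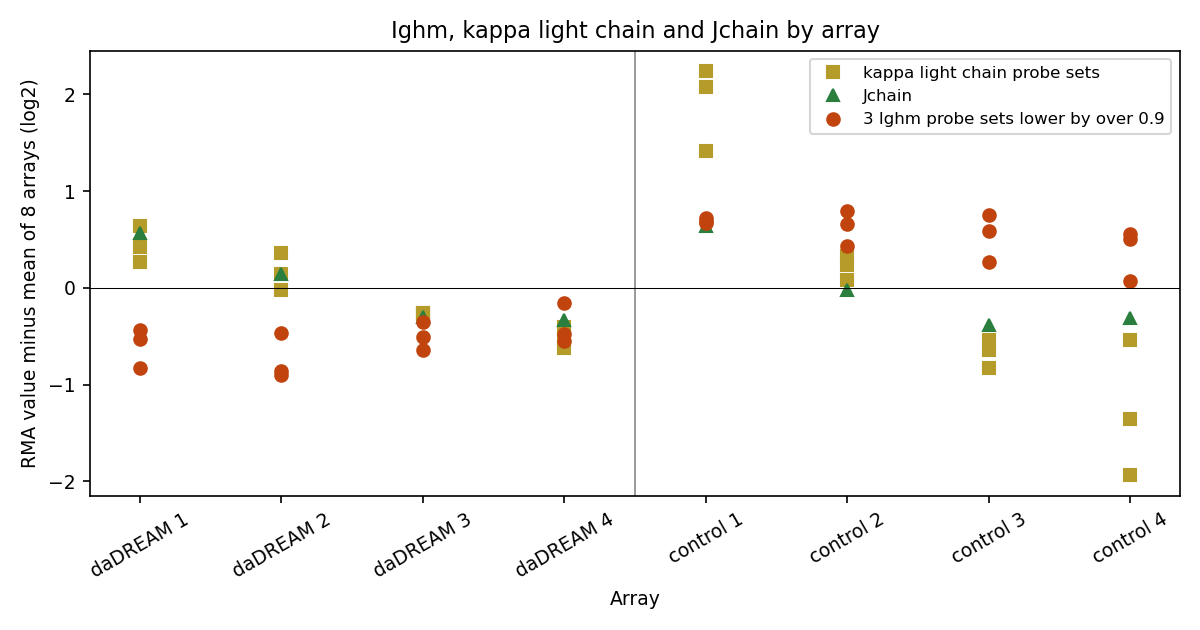
RMA values minus the mean of the 8 arrays (log2) for 3 Ighm probe sets, 3 kappa light chain probe sets and Jchain, with daDREAM arrays left of the line and control arrays right of it. The Ighm probe sets shown are the 3 with the largest differences, so their separation follows from that choice, and most other Ighm probe sets overlap. These 3 Ighm probe sets are below 0 on every daDREAM array and above 0 on every control array. Kappa light chain is highest on control replicate 1 and lowest, alone or tied, on control replicate 4.

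Most B lineage markers had a lower mean in transgenic ganglia. Of 17 measured among 18 listed, 1 passed, which is 5.88%, where 2% of all genes passed, and 5 had an unadjusted p under 0.05, where 18.2% of all genes did. That gene, Cd72, a coreceptor of B cells, fell (5.39, 5.39, 5.61 and 5.45 on daDREAM arrays, 5.94, 5.96, 5.87 and 6.03 on control arrays, difference -0.49, limma adjusted p = 0.00547). Its values are dim, and without daDREAM replicate 4 and control replicates 3 and 4, the arrays with Xist signal, 0 of the markers passed. Without control replicate 4 alone, 2 passed. The mean was lower in transgenic ganglia for 14 of the 17 (49.4% of all genes), with a median difference of -0.19, against 0 over all genes. Their summed linear signal was 2115 to 2193 on daDREAM arrays and 2103 to 2527 on control arrays. Bank1, Cr2, Cd22 and Btk, each with an unadjusted p under 0.05 (limma), differed by -0.35, -0.30, -0.32 and -0.21 without passing. Ebf1 was bright, at 9.74 to 9.99 on daDREAM arrays and 9.73 to 10.23 on control arrays, and so weighed most in the summed signal of the B lineage markers. Ms4a1 (CD20) was dim in both groups and read 4.87 to 5.40 on daDREAM arrays and 5.15 to 5.17 on control arrays. Pax5, the transcription factor of B cell identity, read 6.39 to 6.80 on daDREAM arrays and 6.57 to 7.14 on control arrays. Of 10 T and NK cell markers 0 passed, 2 had an unadjusted p under 0.05 (18.2% of all genes), and 9 had a lower mean (49.4% of all genes), with a median of -0.14. Those 2 were Cd3e and Gzmb, at -0.25 and -0.26 (limma adjusted p = 0.158 and 0.239). The summed linear signal of the T and NK cell markers was 878.4 to 932.8 on daDREAM arrays and 933.4 to 1127 on control arrays. Pan leukocyte and macrophage markers had 8 of 10 means higher, a median of 0.06, and 0 that passed or had an unadjusted p under 0.05. The part of lymphocyte content in the Ighm difference was not tested.

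Relatives and partners of AHNAK2 did not pass. Among 10 measured genes 0 passed and 2 had an unadjusted p under 0.05, where 18.2% of all genes did, and the median difference was 0.03. Ahnak itself read 12.09, 11.95, 11.83 and 11.98 on daDREAM arrays and 12.26, 12.42, 12.21 and 12.15 on control arrays. The groups did not overlap, but the difference of -0.30 (SE 0.08) did not pass (limma adjusted p = 0.106). At the other Ahnak probe sets the differences were -0.12, -0.06 and -0.26, with overlapping groups. Cacnb2, a calcium channel subunit from a family that binds AHNAK, differed by 0.30 (limma adjusted p = 0.188). S100a10 and Anxa2, the membrane partners of AHNAK, had differences of 0.07 and -0.07 with overlapping groups.

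Other zinc finger genes were not lower in general. Zfp386 and Zfp839 were chosen for reading lower, so nothing is read from their contrast with these genes. Of 303 other genes with a numbered Zfp symbol, 7 passed (2.31%, beside 2% of all genes). Of these 5 were higher and 2 lower, where 0.984% and 1.02% of all genes were, and the median difference was 0.02. Zfp961 rose by 0.76 and Zfp963 by 0.65, and Zfp882, Zfp605 and Zfp365 were higher by 0.48, 0.47 and 0.41. Zfp367 fell by 0.745 and Zfp352 by 0.53. Over the 45037 probe sets 2.74% passed when adjusted over probe sets. For Zfp367 the second probe set was also lower, at -0.71 (limma adjusted p = 0.00316 over probe sets), whereas for Zfp882 a dimmer one went the other way, at -0.32 (limma adjusted p = 0.0301 over probe sets). Second probe sets of Zfp961, Zfp365 and Zfp352 differed by -0.055, 0.27 and -0.31 without passing, with overlapping groups. The count of 7 became 3 without daDREAM replicate 1, 4 without daDREAM replicate 3 or control replicate 2, and 2 without the arrays with Xist signal. Groups lay wholly lower in 13 of the 303 and wholly higher in 15, where 5.73% and 5% of all genes did so. Corepressors that many zinc finger repressors use had 0 of 12 past the test and 2 at an unadjusted p under 0.05 (18.2% of all genes), with Hdac1 at 0.29 (limma adjusted p = 0.144) and the DNA methyltransferase Dnmt1 at 0.25 (limma adjusted p = 0.148). Trim28, the central scaffold of that complex, differed by 0.04.

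The genes that lie between the members along chromosome 12 differed in both directions. The members were picked from this stretch for reading lower, so nothing is read from their contrast with the genes between them. In the RefSeq order of assembly GRCm38.p6, used only for order since no build is named for the arrays, 36 measured genes separate Zfp839 from Ahnak2, 16 separate Ahnak2 from Ighm, and 3 separate Ighm from Zfp386. Of these 55 genes 2 passed (3.64%, beside 2% of all genes). Gm266, a predicted gene, fell (5.63, 5.73, 5.75 and 5.58 on daDREAM arrays, 6.06, 6.30, 6.19 and 5.96 on control arrays, limma adjusted p = 0.0188), at dim values and with its other probe set at 0.04. Coa8, which acts in the assembly of cytochrome c oxidase, rose (9.51, 9.44, 9.45 and 9.37 on daDREAM arrays, 9.19, 9.15, 9.11 and 8.97 on control arrays, difference 0.34, limma adjusted p = 0.0389). A dim second Coa8 probe set was also higher by 0.41 (with limma over probe sets, adjusted p = 0.0315), while the third read -0.35 without passing. Both calls are fragile: the count of 2 became 0 without daDREAM replicate 1, 2 or 4 or control replicate 3, 1 without daDREAM replicate 3 or control replicate 1 or 2, and 0 without the arrays with Xist signal.

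Differences of the 55 ranged from -0.455 to 0.45. Their median was 0.06, and 34 means were higher and 20 lower. The daDREAM arrays lay wholly above the control arrays in 9 of the 55 (16.4%, beside 5% of all genes) and wholly below in 1 (1.82%, beside 5.73%). Of the 15 nearest measured genes, the nearest pair on each side of every member, 0 passed and 4 had an unadjusted p under 0.05 (18.2% of all genes). Beside Ahnak2, the phospholipase family gene Pld4 differed by -0.29 (limma adjusted p = 0.258) on one side and Clba1 by 0.38 (limma adjusted p = 0.0608) on the other. Next to Zfp839, Cinp differed by 0.35 (limma adjusted p = 0.109) and Mok by -0.07. Second probe sets of Clba1 and Cinp differed by 0.11 and -0.14, with overlapping groups. Vipr2, a receptor for vasoactive intestinal peptide that follows Zfp386, differed by -0.10 with overlapping groups.

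**Figure D4:**
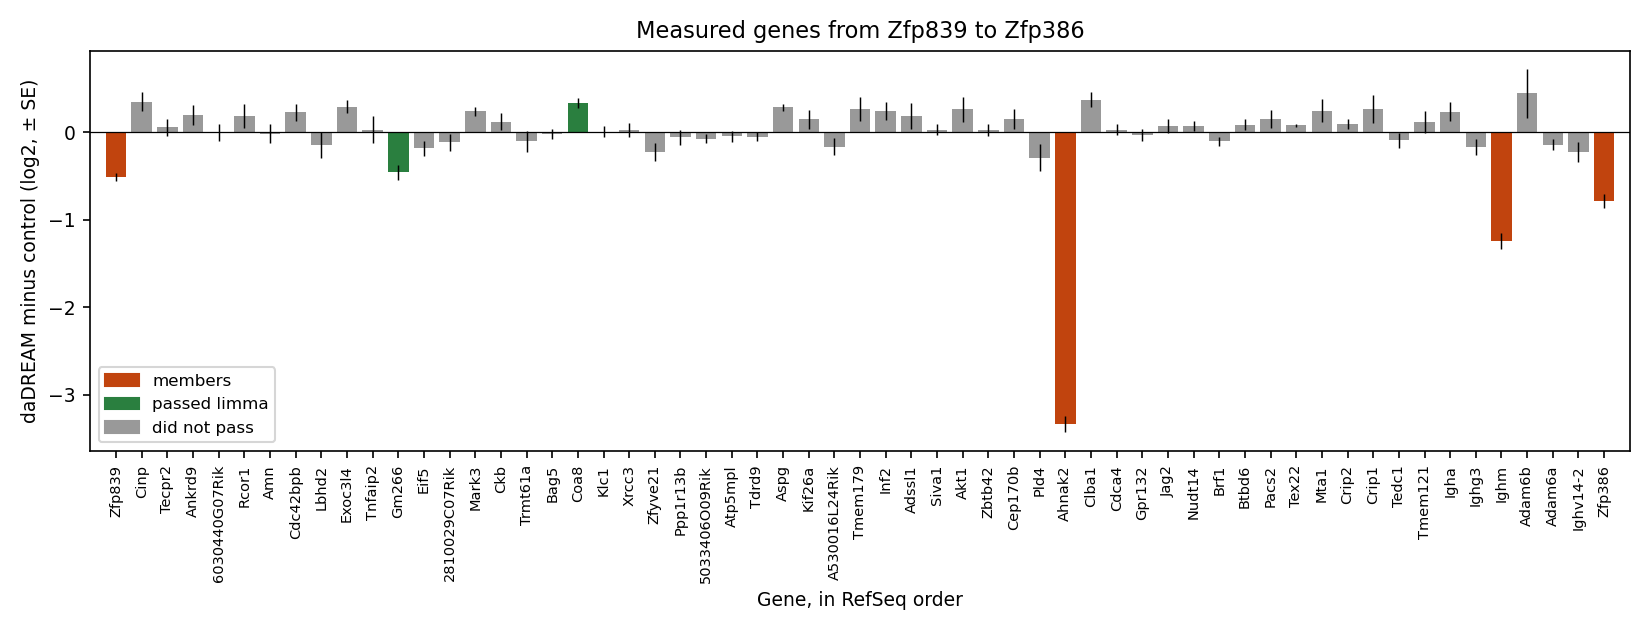
Difference of daDREAM minus control (log2, bars with SE, n = 4 each) of the 59 measured genes from Zfp839 to Zfp386, in RefSeq order and not to scale. The 4 members, chosen for reading lower, lie below 0, and the 55 genes between them lie from -0.455 to 0.45, with Gm266 and Coa8 marked as having passed limma.

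Elsewhere on chromosome 12 the large differences went in both directions. Of 563 measured genes outside the interval 9 passed (1.6%, beside 2% of all genes), 5 higher and 4 lower, and all 9 lay before Zfp839, with 0 of the 16 genes after Zfp386. Galc, the lysosomal galactosylceramidase, was nearest to Ahnak2 in size: 5.93, 5.70, 5.94 and 5.91 on daDREAM arrays, 8.85, 9.09, 9.14 and 8.44 on control arrays (difference -3.01, limma adjusted p = 3.07e-07). The next one was higher by 0.48 (adjusted p = 0.00434 with limma over probe sets), so that the probe sets of Galc disagree. Snapc1, a subunit of the complex that starts small nuclear RNA transcription, fell by 0.995, the serpin gene Serpina11 by 0.55 and the mitochondrial carrier gene Slc25a47 by 0.44. Serpina1b and Serpina1c, near-identical genes of the antitrypsin family, rose by 1.55 and 1.44, from dim control values. Slc25a29, a mitochondrial carrier of basic amino acids and the immediate neighbour of Slc25a47, rose by 1.03, with its other probe sets between 0.13 and 0.56. The developmental transcription factor Sox11 rose by 0.91 at 1 probe set, while its others read -0.34 to 0.11, and Gm9222 rose by 0.37.

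**Figure D5:**
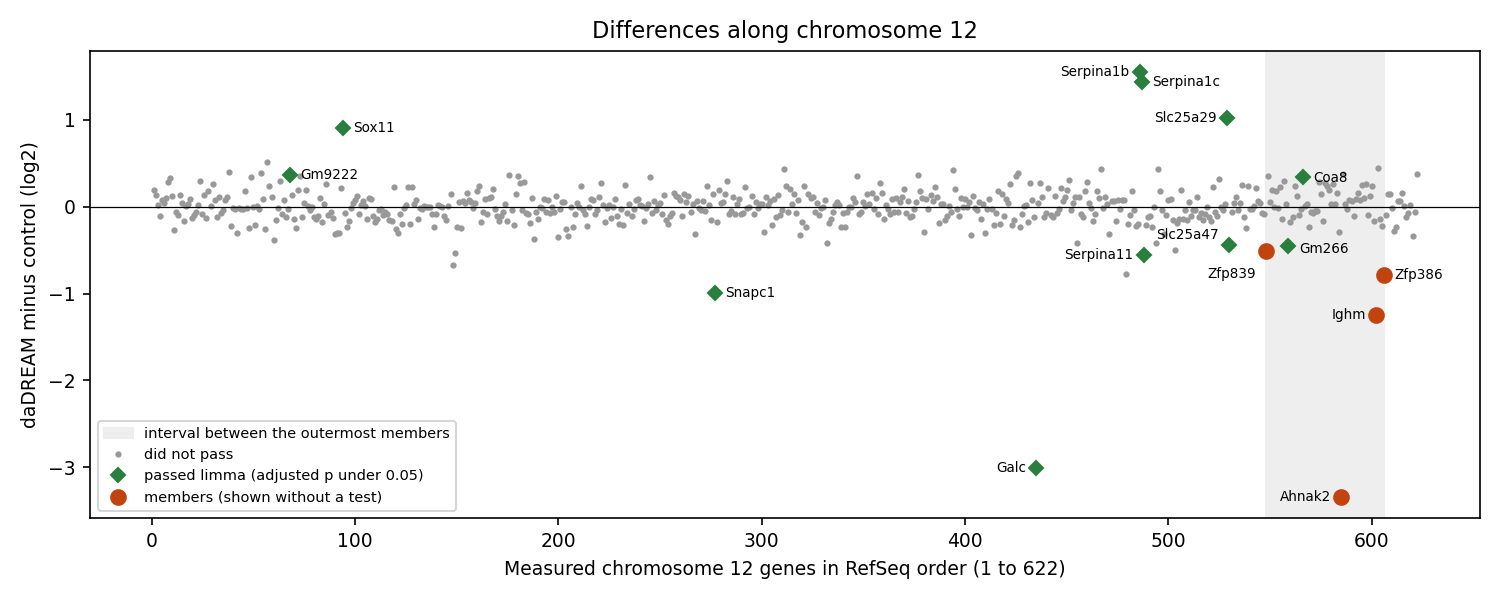
Difference of daDREAM minus control (log2) of the 622 measured chromosome 12 genes by their RefSeq order, not by distance. Members are circles, genes that passed limma are diamonds, the rest are small points, and the grey band spans the genes from Zfp839 to Zfp386. Genes that passed lie on both sides of 0 outside the band.

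The members differed among themselves mainly in size. Likeness was measured as the root mean square difference between mean-centred log2 values over the 8 arrays, where 0 means the same values about the mean. It rests on the values by which the members were chosen. Most of it is the difference between the groups, so it mainly finds genes with a difference of like size. Zfp386 and Zfp839 were closest, at 0.17, and Ighm lay 0.26 from Zfp386. Ahnak2 lay 1.06 to 1.42 from the other 3. Among all other genes, those nearest to Ahnak2 were Gm1976 (0.30), Galc (0.31) and Gm26782 (0.44), on chromosomes 17, 12 and 14. For Ighm they were Prxl2c (0.07), Sox2ot (0.13) and Folh1 (0.14), on chromosomes 13, 3 and 7. Nearest to Zfp839 came AI429214, Slc7a8 and Fam32a (0.06 to 0.07), and nearest to Zfp386 came 2610005L07Rik, Trim12c and Acpp (0.09 to 0.10). Of these 12 genes only Galc is on chromosome 12, where 622 of the 18032 placed genes lie, and nothing is read from that count.

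Members still read lower without the arrays with Xist signal, a choice made after seeing the data. Their groups do not overlap at the probe sets used, so leaving out arrays could not change that direction. With 3 daDREAM and 2 control arrays left, the difference was -3.37 for Ahnak2, -1.31 for Ighm, -0.56 for Zfp839 and -0.87 for Zfp386.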

How the data were processed

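The authors deposited log2 values, 1 for each probe set and array, computed by RMA in affy per the submitters' processing notes, with no version named. RMA corrects background, quantile-normalizes and summarises probes, so a shift shared by most genes is removed. Arrays correlated at 0.983 to 0.996. Of 45101 rows 64 control probe sets were left out; 34945 probe sets had 1 symbol, 932 several and 9160 none. For each of 18193 genes the brightest single-symbol probe set by mean was used, and 18032 were placed by gene ID in RefSeq (GRCm38.p6). The gene test was limma 3.58.1 under R 4.3.3 (lmFit, eBayes, two-sided, group only, Benjamini-Hochberg adjustment). The number of arrays limits the precision. Figures used matplotlib 3.10.9.

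Members and lists were chosen with earlier results of these data known. Named were all member probe sets, some of the nearest 2 genes each side, and chromosome 12 genes that passed. So were the largest passing Zfp differences and the 3 genes most like each member. In some lists the genes that passed, or those with the smallest p, were named, and in other lists not all of them were. Others, such as Cd79a, Jchain, Pax5, Ms4a1, Ebf1, S100a10, Anxa2 and Trim28, were named for their role. Of the 13 lists, those not described above had these counts past the test: 0 of 4 erythroid, 0 of 9 satellite glia and Schwann cell, 0 of 9 fibroblast, 0 of 10 skeletal muscle, 0 of 7 pituitary and 1 of 8 central nervous system markers (limma), with 0, 2, 2, 7, 0 and 7 at an unadjusted p under 0.05, where 18.2% of all genes had one; median differences were 0.00, -0.045, -0.105, -0.56, 0.155 and 0.73. Sensory neuron markers had 0 of 12 and 0. Alternatives covered normalization, the replicate block, the variance prior, a filter, the threshold, the probe set choice, the interval and leaving out arrays.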

Additional observations from a re-analysis of the deposited data

Results flagged for a closer look

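In 5 of 142 groups of 4 arrays that were checked, 1 array stood far from the other 3; chance alone gives about 1 in 20 such groups. For Ighm these were daDREAM replicate 1 at probe set 1425385_a_at (5.62, the others 5.94 to 5.98) and daDREAM replicate 3 at 1425324_x_at (5.85, the others 6.19 to 6.24). Of the chromosome 12 genes, Galc read 5.70 on daDREAM replicate 2, the others 5.91 to 5.94, and Tecpr2 read 8.82 on control replicate 4, the others 9.13 to 9.14. The erythroid gene Slc4a1 read 6.85 on control replicate 1, the others 6.72 to 6.74.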

How the results depend on the processing

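Of 216 recomputed values, 181 stayed within the spread between replicates or within 1.5 times the count. The members were chosen for reading lower, and at the probe sets used for them the groups do not overlap. Leaving out arrays could therefore not change the sign of a member's difference, and no other setting did. Leaving out each array in turn gave -3.39 to -3.25 for Ahnak2, -1.30 to -1.16 for Ighm, -0.54 to -0.49 for Zfp839 and -0.83 to -0.71 for Zfp386. The Ighm difference was -0.34 as the mean of its probe sets, most of which are dim, and that of Zfp386 -1.06 at its most variable probe set. Separated member probe sets numbered 8 to 9 without single arrays and 10 without the Xist arrays, a count that leaving out arrays cannot lower. Genes that passed numbered 229 to 349 without single arrays, 672 with the replicate block, 181 at an adjusted p under 0.01, 697 with the most variable probe set and 213 without the arrays with Xist signal; probe sets numbered 755 to 1271, 2017 with the replicate block and 621 at 0.01. Chromosome 12 genes outside the interval that passed numbered 7 to 12, 24 with the replicate block and 25 with the most variable probe set. Interval genes that passed numbered 0 to 2 without single arrays, 1 after renewed quantile normalization or with the mean of probe sets, 0 at 0.01 or without the Xist arrays, and 4 in the wider interval. B lineage markers numbered 1 to 2, 0 among brighter probe sets or without the Xist arrays, and 2 with the most variable probe set. Zfp genes numbered 3 to 7, 3 at 0.01 and 2 without the Xist arrays. The replicate numbers were not taken as pairs, since the deviations of same-numbered arrays correlated at 0.21, 0.01, 0.33 and 0.36, 1 of them under 0.1; 5 of 8 arrays correlated best with their own number in the other group. Causes were not tested. The 7 overlapping Ighm probe sets read 5.39 to 6.49, with 1 mean under 6.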

Other observations

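A further 4 probe sets list Ighm among several heavy chain symbols and so belong to no single gene. Groups overlapped in all 4. The differences of 3 of them lay between -0.05 and 0.02. The other, 1427851_x_at, which is shared with a variable segment, read 5.31, 5.75, 5.22 and 5.55 on daDREAM arrays and 6.04, 5.82, 5.48 and 6.27 on control arrays, a difference of -0.445. The heavy chain gene Igha gave a contrast in the other direction at its second probe set, with a mean of 7.21 in daDREAM and 6.68 in control ganglia. The groups did not overlap there, but the difference of 0.53 did not pass (limma adjusted p = 0.0691 over probe sets).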
